A study of Mus with 21 samples.

Results

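The 10 genes described here are transcriptional targets of FGF receptor and ERK signalling, most of which feed back on the same pathway: the Sprouty genes Spry1, Spry2 and Spry4, the Sprouty-related genes Spred1 and Spred2, the phosphatases Dusp4 and Dusp6, the transcription factors Etv4 and Etv5, and the receptor-like inhibitor Il17rd. They were chosen by symbol from what is known of the pathway, with earlier results of these data known. Among the 18806 genes of the count files, 10 of 10 were found. All 10 also passed the filter on low counts.

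RNA was collected on day 4 from wounds of wild-type C57BL/6 female mice that were 8 weeks old, and 21 libraries were made in 7 groups of 3. Each mouse carried splinted full-thickness wounds, made with an 8 mm punch on each side of the back, and it was not stated whether the wounds of a mouse were pooled for RNA. The control wounds received no hydrogel, while the other 6 groups received gelatin methacryloyl (GelMA) hydrogel of pH 6.4, 7.4 or 8.4 loaded with 200 ng of acidic FGF (aFGF, the product of Fgf1) or basic FGF (bFGF, the product of Fgf2). Groups are named by pH and factor, as in 6.4-GelMA/aFGF. No group with an unloaded hydrogel was analysed here, so the gel and the factor cannot be told apart in any comparison with control. The question addressed was whether the loaded growth factor was accompanied by a difference in these target genes on day 4.

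FGFs bind receptor tyrosine kinases that signal through RAS, RAF, MEK and ERK, and active ERK switches on genes that restrain the pathway again. Sprouty and Spred proteins act between the receptor and RAF, Dusp phosphatases remove phosphate from MAP kinases, and Il17rd (also called Sef) acts at the receptor and at MEK and ERK. Etv4 and Etv5 are ETS transcription factors that carry FGF signals to target genes, and the transcripts of the whole set are often read as a sign of FGF signalling. In skin wounds FGFs act on keratinocytes, fibroblasts and endothelial cells.

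Libraries held 34362558 to 37817833 counts. Skin and wound markers were present in every library: 10 of 10 keratinocyte genes had counts, with a summed level of 3029 to 7901 CPM (counts scaled to a common library size), and likewise 10 of 10 fibroblast genes (34383 to 75448 CPM) and 10 of 10 macrophage genes (4998 to 10802 CPM). Several libraries stood apart. Control replicates 1 and 3 had 1385 and 844 CPM of neutrophil markers, below all hydrogel libraries (3631 to 13190 CPM). Control replicate 2 had 9057 CPM, within the range of the hydrogel libraries and unlike the other control wounds. Skeletal muscle genes, 10 of 10 with counts, summed to between 255 and 15900.5 CPM over all libraries. Genes of other tissues were high in 7.4-GelMA/aFGF replicate 3 (cartilage genes, 368 CPM), 8.4-GelMA/aFGF replicate 2 (liver genes, 252 CPM) and 8.4-GelMA/bFGF replicate 2 (ovary genes, 897 CPM). Liver genes also differed between the factors at a low level: their sum was 5.61 to 252 CPM (median 20.8) with aFGF, 2.33 to 27.1 CPM (median 4.98) with bFGF and 5.44 to 20.2 CPM in control, and 7 of the 9 that were tested were called for aFGF against bFGF over all pH. In bulk tissue, fewer cells of a type and less RNA per cell cannot be told apart.

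Levels were first compared between genes per length, with the deposited FPKM values. The median over 21 libraries was highest for Dusp6, the ERK phosphatase of the cytoplasm, at 28.6 FPKM. Spred1 followed at 16.3 FPKM and Spry1 at 9.42 FPKM. Etv5 and Spry2 had nearly the same median, 5.52 and 5.43 FPKM, and their ranges overlapped. Etv4 stood at 3.87 FPKM and Dusp4, a nuclear MAP kinase phosphatase, at 3.04 FPKM. Il17rd (1.35 FPKM), Spry4 (0.948 FPKM) and Spred2 (0.793 FPKM) were lowest. The place of Spred2 rests on a length of 37937 bases behind its deposited FPKM, whereas the lengths of the other 9 genes lay between 2422 and 10374 bases. All other values below are CPM or log2 fold changes of CPM and compare groups for 1 gene at a time.

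**Figure D1:**
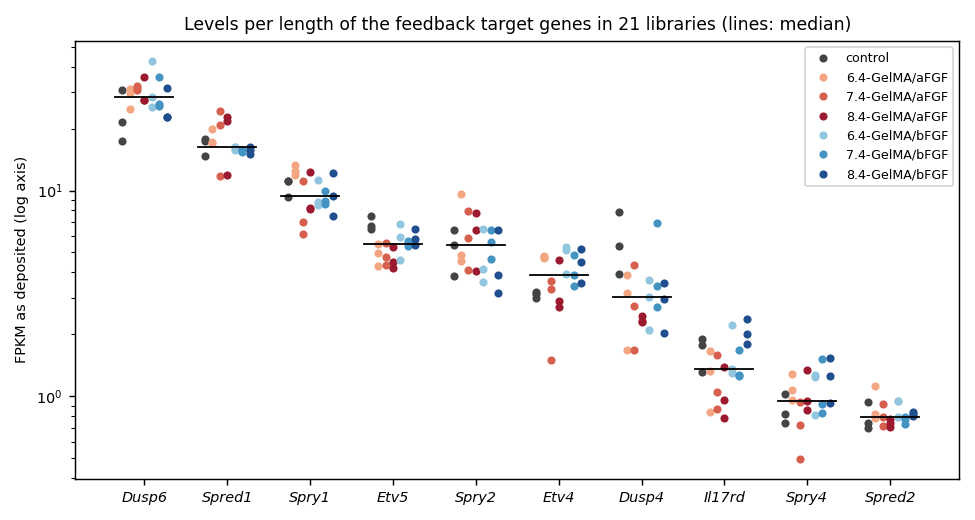
FPKM as deposited, on a log axis, of each of the 10 genes in 21 libraries, coloured by group, with the median as a line. Dusp6 (median 28.6 FPKM) and Spred1 (16.3 FPKM) have the highest medians, and Spry4 (0.948 FPKM) and Spred2 (0.793 FPKM) the lowest.

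Group means lay close together for most of the genes. The ratio of the highest to the lowest group mean ran from 1.20 for Spred2 to 2.29 for Dusp4. When the 7 groups were put in order of their mean, 0 of 6 neighbouring pairs were free of overlap for each of the 10 genes. The same count was not made over all genes, so nothing particular to these genes is read from it. The coefficient of variation within groups was lowest for Etv5 (12.4%), then Spred2 (14.3%), and highest for Spry2 (33.7%) and Dusp4 (36.1%), beside a median of 19.7% over all genes tested. Counting error alone gave 1.52% for Spred1 to 6.10% for Dusp4 and was below the spread within groups for each of the 10 genes.

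**Figure D2:**
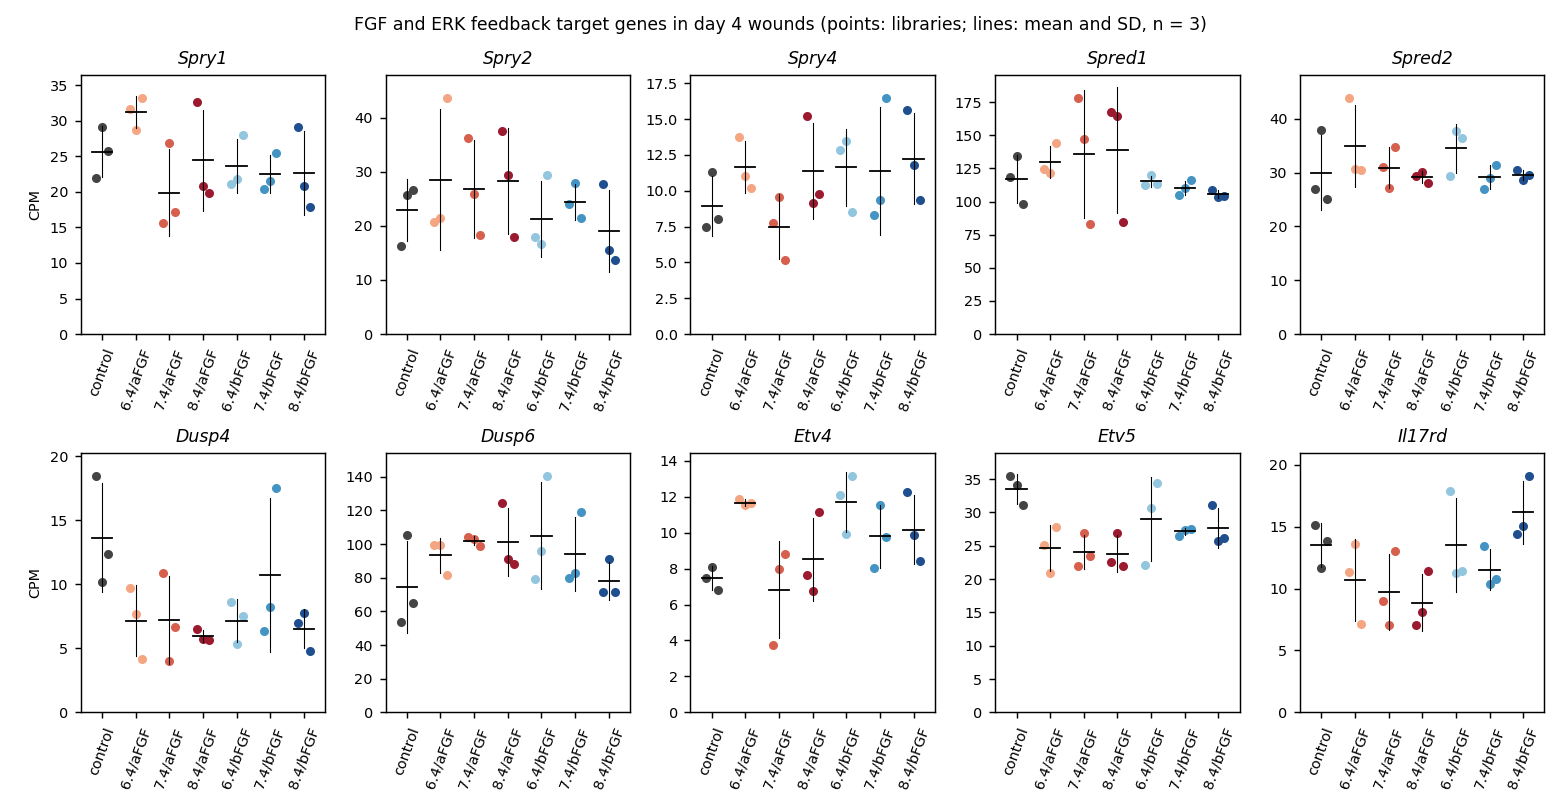
CPM of each gene by group (points are libraries, lines the mean and SD, n = 3), each panel on its own axis from 0. Dusp4 and Etv5 are highest in control, where Dusp4 ranges from 10.2 to 18.4 CPM and Etv5 from 31.1 to 35.4 CPM.

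None of the 10 genes passed the test in any of 14 comparisons, in which a call needed both an adjusted p-value below 0.05 and a change of more than 0.58 in log2 (edgeR's quasi-likelihood test with Benjamini-Hochberg adjustment over all genes tested). Over all 15811 genes tested, 0.00632% were called for the 6 hydrogel groups against control, 1.26% for the aFGF groups against control, 0.0126% for the bFGF groups against control and 3.2% for aFGF against bFGF over all pH. For any difference among the 7 groups, called on the adjusted p-value alone, 0 of 10 genes and 0.114% of all genes passed. The direction of the 10 genes was mixed: the log2 fold change was above 0 for 6 of 10 with hydrogels against control (46.6% of all genes), 6 of 10 with aFGF against control (45.9%), 4 of 10 with bFGF against control (46.6%) and 5 of 10 with aFGF against bFGF (49.7%). At an unadjusted p-value under 0.05 stood 2 of 10 genes for hydrogels against control (16.7% of all genes), 3 of 10 for aFGF against control (22.4%), 3 of 10 for bFGF against control (13.5%), 3 of 10 for aFGF against bFGF (28%) and 2 of 10 (Etv4 and Etv5) for any difference (19.3%). The comparisons with control share the same 3 control libraries. DESeq2 called 0 of 10 genes for hydrogels against control, and 1 of 10 for aFGF against control, given below.

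The Sprouty genes encode inhibitors that are induced by ERK and act upstream of it. Spry1 had 22.0, 29.2 and 25.7 CPM in control, 31.6, 28.7 and 33.2 CPM in 6.4-GelMA/aFGF, 15.6, 26.9 and 17.1 CPM in 7.4-GelMA/aFGF and 32.6, 20.8 and 19.9 CPM in 8.4-GelMA/aFGF. With bFGF it had 21.1, 21.9 and 28.0 CPM at pH 6.4, 20.4, 21.5 and 25.5 CPM at pH 7.4 and 29.2, 20.8 and 17.9 CPM at pH 8.4. The pH 6.4 aFGF libraries were the highest as a group, but the control range and 2 of the other hydrogel groups reached into theirs. Hydrogels differed from control by -0.11 in log2 (95% interval -0.49 to 0.27, adjusted p = 0.784).

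Spry2 was the most uneven of the Sprouty genes. Its control libraries had 16.3, 25.7 and 26.7 CPM, the 9 aFGF libraries had a lowest value of 17.9, a median of 25.9 and a highest of 43.6 CPM, and the 9 bFGF libraries had 13.8, 21.4 and 29.4 CPM. All of these ranges overlapped. On the log2 scale it differed by 0.09 for hydrogels against control (95% interval -0.52 to 0.69) and 0.39 for aFGF against bFGF (95% interval -0.06 to 0.84, adjusted p = 0.249). Spry4 had 7.44, 11.3 and 8.04 CPM in control, and 16 of 18 hydrogel libraries lay above the control median. Its log2 fold change was 0.28 (95% interval -0.25 to 0.80, adjusted p = 0.592).

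Spred1 and Spred2 encode membrane-bound inhibitors of RAS and RAF activation. Spred1 had 118, 135 and 98.4 CPM in control. With aFGF it had 125, 121 and 144 CPM at pH 6.4, 178, 147 and 83.2 CPM at pH 7.4 and 168, 165 and 84.2 CPM at pH 8.4, while the 9 bFGF libraries had 104 to 120.3 CPM (median 110.1). The aFGF libraries were thus spread on both sides of the bFGF libraries, with replicate 3 lowest at pH 7.4 and pH 8.4. The log2 fold change of aFGF against bFGF was 0.30 ± 0.14 (SE, 9 libraries each, unadjusted p = 0.0475, adjusted p = 0.173 in edgeR's quasi-likelihood test). Without 8.4-GelMA/aFGF replicate 3, Spred1 was called at pH 8.4 (log2 fold change 0.68, adjusted p = 0.0478), a setting in which 1.12% of all genes were called.

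Spred2 was the steadiest gene between groups. It had 27.0, 37.9 and 25.0 CPM in control and 27.0 to 43.9 CPM with hydrogel, and the log2 fold change of hydrogels against control was 0.06 (95% interval -0.21 to 0.32). For aFGF against bFGF it was 0.04 (95% interval -0.16 to 0.24). These intervals stayed within the threshold of 0.58 in both directions. Its sign turned when control replicate 1 or 3 was left out (log2 fold change of -0.02 and -0.05).

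Dusp4 had the largest log2 fold change against control of the 10 genes, with lower values in most hydrogel libraries. It had 18.4, 10.2 and 12.3 CPM in control, 9.69, 7.64 and 4.16 CPM in 6.4-GelMA/aFGF, 10.9, 4.03 and 6.68 CPM in 7.4-GelMA/aFGF and 6.50, 5.73 and 5.62 CPM in 8.4-GelMA/aFGF. With bFGF it had 8.63, 5.31 and 7.53 CPM at pH 6.4, 6.39, 8.20 and 17.6 CPM at pH 7.4 and 7.01, 7.75 and 4.82 CPM at pH 8.4. Thus 16 of 18 hydrogel libraries lay below the lowest control library, and the other 2 lay within the control range. The log2 fold change was -0.90 ± 0.29 (SE) for hydrogels against control, with a 95% interval of -1.53 to -0.28 (unadjusted p = 0.00726, adjusted p = 0.180).

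With each factor taken separately, Dusp4 had a log2 fold change of -1.01 (adjusted p = 0.0894) for aFGF against control and -0.79 (adjusted p = 0.322) for bFGF against control. Between the factors the difference was within the spread of the libraries, with a log2 fold change of -0.23 for aFGF against bFGF and a 95% interval of -0.73 to 0.28. For aFGF against control, Dusp4 was called by DESeq2 with default settings (-1.01, adjusted p = 0.0397, with 3.83% of all genes called) and by edgeR without control replicate 2 (-1.19, adjusted p = 0.0336, with 11.9% of all genes called). Without control replicate 1 or 3 the adjusted p-values were 0.421 and 0.323, with 0 genes called among all genes.

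Adipocyte markers were highest in the same libraries as Dusp4. The 10 adipocyte genes, all with counts in every group, summed to 10592 CPM in control replicate 1 and 8184 CPM in 7.4-GelMA/bFGF replicate 3, the libraries with the highest adipocyte sums and also the highest Dusp4, 18.4 and 17.6 CPM. Control replicates 2 and 3 had sums of 894 and 5720 CPM, the aFGF libraries 1401 to 5503 CPM and the bFGF libraries 542 to 8184 CPM. Of the 10 adipocyte genes, 10 had a log2 fold change below 0 for hydrogels against control, with a median of -1.45, 6 of them at an unadjusted p-value under 0.05 and 0 of them called. The part of the adipocyte genes in the Dusp4 difference was not tested.

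Dusp6, which is specific for ERK, had 53.9, 106 and 64.7 CPM in control. In the aFGF libraries it had 99.1, 99.2 and 81.4 CPM at pH 6.4, 104, 103 and 99.1 CPM at pH 7.4 and 124, 91.1 and 88.4 CPM at pH 8.4. In the bFGF libraries it had 79.2, 95.8 and 140.2 CPM at pH 6.4, 79.9, 82.9 and 119 CPM at pH 7.4 and 71.4, 91.3 and 71.5 CPM at pH 8.4. All 18 hydrogel libraries lay above control replicates 1 and 3, and 15 of them lay below control replicate 2. The log2 fold change was 0.34 ± 0.20 (SE) for hydrogels against control (95% interval -0.07 to 0.76, adjusted p = 0.389), 0.40 for aFGF and 0.28 for bFGF against control.

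The call on Dusp6 turned on control replicate 2. Without it, the log2 fold change of hydrogels against control was 0.67 (adjusted p = 0.0492, called, with 7.4% of all genes called), and that of aFGF against control was 0.73 (adjusted p = 0.0296, called). Without control replicate 1 or 3 the values for hydrogels against control were 0.15 and 0.26 (adjusted p = 0.869 and 0.799). The control libraries also differed in neutrophil genes, of which 10 of 10 had counts in every group. Their summed level of 9057 CPM in control replicate 2 lay within the range of the aFGF libraries (4254 to 11663 CPM) and of the bFGF libraries (3631 to 13190 CPM). Control replicates 1 and 3, with 1385 and 844 CPM, lay below both ranges. For hydrogels against control, 10 of 10 neutrophil genes had a log2 fold change above 0, with a median of 0.94, 1 at an unadjusted p-value under 0.05 and 0 called. The part of the neutrophil genes in the Dusp6 values was not tested.

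**Figure D3:**
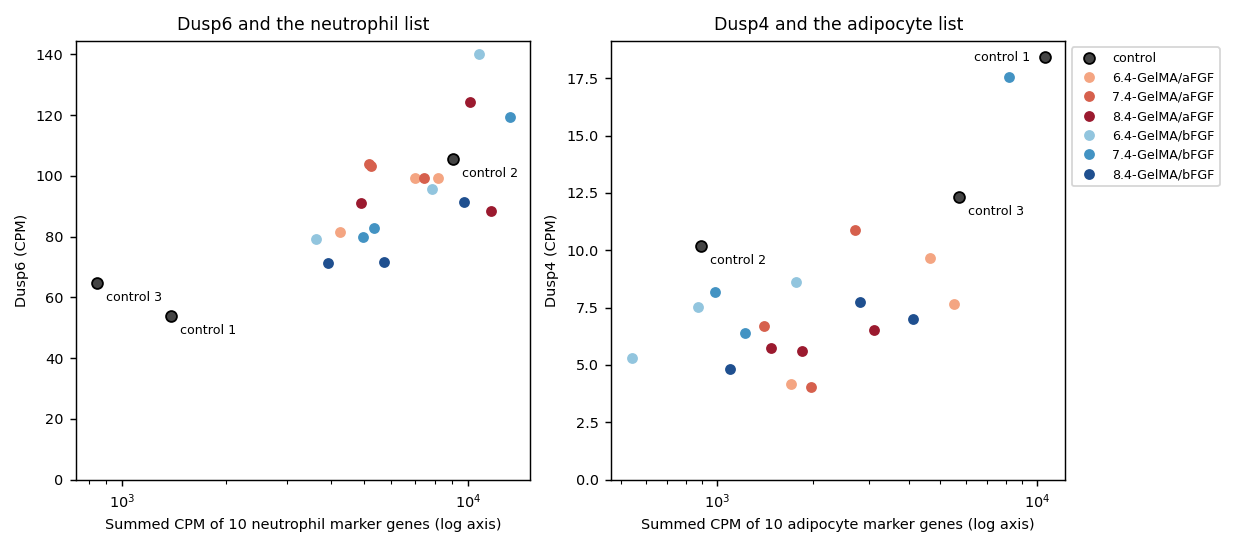
CPM of Dusp6 against the summed CPM of 10 neutrophil markers (left) and of Dusp4 against that of 10 adipocyte markers (right) in 21 libraries, with the marker sums on a log axis and the control libraries named. Control replicate 2, with 9057 CPM of neutrophil markers, lies among the hydrogel libraries on the left, and control replicate 1 has the highest sum and the highest Dusp4 (18.4 CPM) on the right.

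Etv4 and Etv5 belong to the same ETS subfamily, and their differences from control had opposite signs. Etv5 had 35.4, 34.1 and 31.1 CPM in control. With aFGF it had 25.2, 21.0 and 27.8 CPM at pH 6.4, 22.0, 26.9 and 23.4 CPM at pH 7.4 and 22.6, 26.9 and 21.9 CPM at pH 8.4. With bFGF it had 22.0, 30.6 and 34.3 CPM at pH 6.4, 26.5, 27.4 and 27.5 CPM at pH 7.4 and 31.1, 25.7 and 26.2 CPM at pH 8.4. All 9 aFGF libraries and 8 of 9 bFGF libraries lay below the lowest control library. Of the 10 genes, Etv5 alone had no overlap between aFGF and control, a pattern shown by 4.12% of all genes tested, and 0 of 10 had none between bFGF and control (3.33%) or between all hydrogels and control (0.582%).

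The log2 fold change of Etv5 was -0.38 ± 0.11 (SE) for hydrogels against control, with an adjusted p-value of 0.148. For aFGF against control it was -0.47 ± 0.12 (SE), with a 95% interval of -0.72 to -0.23. Its adjusted p-value there, 0.0451, was under 0.05, and it was not called because the fold change was short of the threshold. For bFGF against control it was -0.28 (adjusted p = 0.330), and for aFGF against bFGF -0.20 (95% interval -0.37 to -0.02, adjusted p = 0.145). The adjusted p-value for aFGF against control was 0.232 and 0.270 without control replicate 1 or 3, 0.0302 without control replicate 2, and 0.0668 without the 3 libraries with genes of other tissues. It was 0.0111 in DESeq2.

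**Figure D4:**
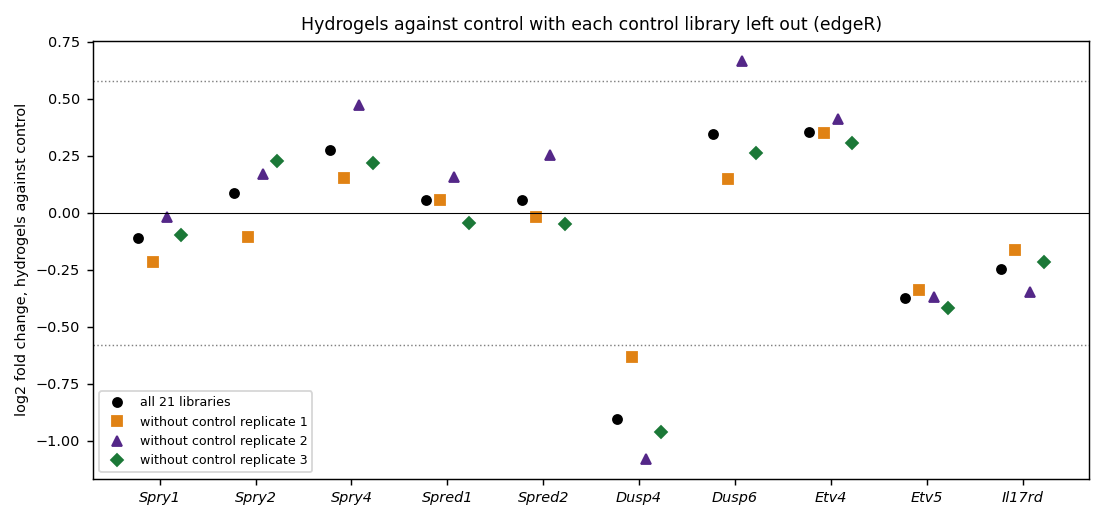
Log2 fold change of the 6 hydrogel groups against control in edgeR for each gene, with all 21 libraries and with each control library left out, and dotted lines at the threshold of 0.58. Dusp6 moves from 0.34 to 0.67 without control replicate 2, and Etv5 stays between -0.42 and -0.34.

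Etv4 was low in control, at 7.49, 8.11 and 6.82 CPM. It had 11.9, 11.5 and 11.6 CPM in 6.4-GelMA/aFGF, 3.73, 7.98 and 8.80 CPM in 7.4-GelMA/aFGF and 7.63, 6.76 and 11.1 CPM in 8.4-GelMA/aFGF. With bFGF it had 12.1, 9.89 and 13.1 CPM at pH 6.4, 8.05, 11.5 and 9.78 CPM at pH 7.4 and 12.2, 9.84 and 8.42 CPM at pH 8.4. Above the highest control library lay 8 of 9 bFGF libraries and 5 of 9 aFGF libraries. Against control its log2 fold change was 0.48 ± 0.22 (SE) with bFGF (unadjusted p = 0.0403, adjusted p = 0.349), 0.23 with aFGF (adjusted p = 0.545) and 0.35 with all hydrogels (adjusted p = 0.389).

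Il17rd, the transmembrane inhibitor, lay below the lowest control library in 7 of 9 aFGF libraries and 4 of 9 bFGF libraries. It had 15.1, 11.6 and 13.8 CPM in control. With aFGF it had 11.3, 13.6 and 7.10 CPM at pH 6.4, 8.96, 7.07 and 13.1 CPM at pH 7.4 and 7.02, 8.09 and 11.4 CPM at pH 8.4. With bFGF it had 17.9, 11.2 and 11.4 CPM at pH 6.4, 13.4, 10.3 and 10.8 CPM at pH 7.4 and 14.4, 15.0 and 19.1 CPM at pH 8.4. The factors overlapped at pH 6.4 and 7.4, and at pH 8.4 the 3 bFGF libraries all lay above the 3 aFGF libraries.

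Over all pH, the log2 fold change of Il17rd for aFGF against bFGF was -0.47 ± 0.15 (SE), with a 95% interval of -0.80 to -0.15 (unadjusted p = 0.00707, adjusted p = 0.0581). None of the 10 genes was free of overlap in this comparison, beside 0.607% of all genes. Against control, Il17rd had a log2 fold change of -0.48 with aFGF (adjusted p = 0.195) and -0.01 with bFGF (95% interval -0.47 to 0.45). At pH 8.4 alone the difference between the factors was -0.85 ± 0.22 (SE, 3 libraries each, unadjusted p = 0.00621, adjusted p = 0.128 in edgeR's quasi-likelihood test), and DESeq2 called it there (-0.86, adjusted p = 0.0168, with 6.07% of all genes called).

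Fibroblast markers were unequal between some of the same libraries. The 10 fibroblast genes, all with counts in every group, summed to 75448 and 71323 CPM in 6.4-GelMA/bFGF replicates 1 and 2 and to 72297 CPM in 8.4-GelMA/bFGF replicate 3, where Il17rd had 17.9, 11.2 and 19.1 CPM. The other libraries had 34383 to 54362 CPM. Of the 10 genes, 8 had a log2 fold change below 0 for aFGF against bFGF, with a median of -0.30, 5 of them at an unadjusted p-value under 0.05 and 1 of the 10 called. Markers of other cell types leaned to one side in the same comparison. Of 10 macrophage genes 10 had a log2 fold change above 0 for aFGF against bFGF (median 0.21, 1 called, summed level 6114 to 10802 CPM with aFGF and 4998 to 8748 CPM with bFGF). Of 10 endothelial genes 10 were below 0 (median -0.16, 0 called, 712 to 1326 CPM and 634 to 1598 CPM). The part of the fibroblast, macrophage and endothelial genes in the Il17rd difference was not tested.

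**Figure D5:**
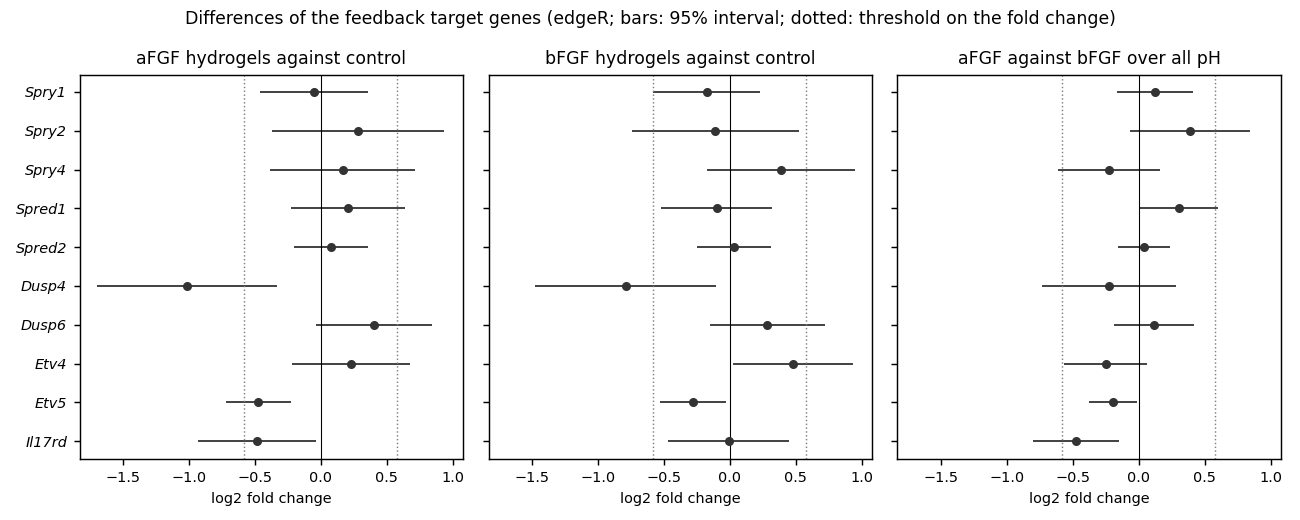
Log2 fold change (points) with its 95% interval (bars) of each gene in edgeR, for aFGF hydrogels against control, bFGF hydrogels against control and aFGF against bFGF over all pH, with dotted lines at the threshold of 0.58. Dusp4 has the lowest values against control (-1.01 and -0.79), and Il17rd (-0.47) the lowest for aFGF against bFGF.

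Within each pH, 0 of the 10 genes were called between the factors. At pH 6.4, Spry1 and Spred1 were higher in all 3 aFGF libraries than in the 3 bFGF libraries, a lack of overlap seen in 15% of all genes, with log2 fold changes of 0.41 (unadjusted p = 0.0251, adjusted p = 0.594) and 0.19 (adjusted p = 0.683). Of 10 adipocyte genes, 10 had a log2 fold change above 0 in the same comparison (median 1.91, 8 at an unadjusted p-value under 0.05, 0 called), with sums of 1704 to 5503 CPM with aFGF and 542 to 1771 CPM with bFGF, and their part in these differences was not tested. At pH 7.4, 0 of 10 genes were free of overlap, beside 20.8% of all genes, and at pH 8.4 only Il17rd was, beside 27.5% of all genes. The calls over all genes were 0% at pH 6.4, 0% at pH 7.4 and 0.00665% at pH 8.4. At an unadjusted p-value under 0.05 stood 1 of 10 genes at pH 6.4 (8.16% of all genes), 0 of 10 at pH 7.4 (13%) and 1 of 10 at pH 8.4 (21.1%).

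The acidic gel was compared with the neutral one for each factor. With aFGF, Etv4, Spry1 and Spry4 were higher in all 3 libraries at pH 6.4 than at pH 7.4, beside 11% of all genes without overlap. Spry4 had 13.7, 11.0 and 10.2 CPM at pH 6.4 and 7.79, 9.60 and 5.14 CPM at pH 7.4. The log2 fold changes were 0.78 for Etv4 (95% interval 0.01 to 1.55, unadjusted p = 0.0470), 0.66 for Spry1 (95% interval 0.12 to 1.19, unadjusted p = 0.0233) and 0.64 for Spry4 (95% interval 0.00 to 1.28, unadjusted p = 0.0512). The adjusted p-value was 0.832 for each in edgeR's quasi-likelihood test, which called 0% of all genes. At an unadjusted p-value under 0.05 stood 2 of 10 genes and 4.99% of all genes. With bFGF, 0 of 10 genes were free of overlap between pH 6.4 and pH 7.4, beside 15.2% of all genes, and 0 of 10 had an unadjusted p-value under 0.05, beside 8.89%.

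The alkaline gel was compared with the neutral one in the same way. With aFGF, 0 of 10 genes were free of overlap between pH 8.4 and pH 7.4, beside 8.3% of all genes, and with bFGF Il17rd alone was, higher at pH 8.4 (log2 fold change 0.50, unadjusted p = 0.0256, adjusted p = 0.861), beside 11.7% of all genes. At an unadjusted p-value under 0.05 stood 0 of 10 genes with aFGF (3.01% of all genes) and 1 of 10 with bFGF (5.72%). The difference between the factors in their response to pH was tested as an interaction. No gene of the 10 reached an unadjusted p-value under 0.05 there, beside 6.09% of all genes for pH 6.4 against 7.4 and 4.73% for pH 8.4 against 7.4. The smallest value was that of Spry1 for pH 6.4 against 7.4 (difference of log2 fold changes 0.57, 95% interval -0.06 to 1.20, unadjusted p = 0.0725). In edgeR all of these pH comparisons called 0 genes over the whole table, while DESeq2 called 4 to 113 genes in each and 0 of the 10.

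The correlations among the 10 genes were mixed in sign. Of the 45 pairs among them, 28 had a Pearson correlation above 0 over the 21 libraries (log2 CPM), 3 were above 0.5 and 2 below -0.5, with a median of 0.0813. Pairs of other genes were not counted, so whether these 45 are more or less alike than others is not known. After Benjamini-Hochberg adjustment over the 45 pairs, 3 had a p-value under 0.05 in a permutation test with 100000 resamples. The test shuffled the 21 libraries without regard to their groups, so its p-values do not separate differences between groups from variation within them. Spry2 and Il17rd went in opposite directions (r = -0.751, permutation p = 0.00014, adjusted p = 0.0063; rho = -0.704, permutation p = 0.00059), with r = -0.639 without the 2 libraries farthest from the median of Spry2. Spred1 and Il17rd did likewise (r = -0.687, permutation p = 0.00056, adjusted p = 0.0126; rho = -0.670, permutation p = 0.00116; r = -0.609 without 2 libraries). Spry2 and Spred1 varied in the same direction (r = 0.638, permutation p = 0.00188, adjusted p = 0.0282; rho = 0.539, permutation p = 0.0126; r = 0.627 without 2 libraries). After the group means were taken out, r was -0.715, -0.667 and 0.588 for the same pairs. These pairs did not stand out by that measure. It was -0.665 for Etv5 and Il17rd, whose r over all libraries was 0.0827, and -0.650 for Spry1 and Il17rd. For Spred1 and Etv4 it was -0.612, and for Spry1 and Spry4 0.597. No p-value was computed for these values.

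The genes most like each of the 10 over the 21 libraries, by Pearson correlation of log2 CPM, were not members of the set. The highest values were those of Dusp6 with Stx11 (0.911) and Snx18 (0.900), and of Il17rd with Ahdc1 (0.907) and Runx1t1 (0.901). Spred1 followed with Eif1a (0.885) and Gtpbp4 (0.875), and Spry2 with Nrros (0.847) and Hepacam2 (0.826). Dusp4 was most like Stc2 (0.836) and Elmod3 (0.835), Etv4 like Gsto1 (0.832) and Cdc45 (0.810), and Spred2 like Frmd6 (0.803) and Kctd11 (0.784). Etv5 with Zbtb8os (0.792) and 2210016F16Rik (0.775), Spry4 with Kcnip1 (0.762) and Ttc7b (0.694), and Spry1 with Ccn1 (0.735) and Shc4 (0.733) had the lowest. These are the best of 15811 genes each and are given as a description. Kcnip1 and Hepacam2 had median levels of only 0.0511 and 0.515 CPM, so nothing is read from their correlations.

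The rest of the pathway was described by 4 lists of 70 genes in all, all of which were tested. The lists were chosen with earlier results of these data known, so their counts and medians are a description only. For hydrogels against control edgeR called 0 of 70 genes, beside 0.00632% of all genes, and DESeq2 called 0. At an unadjusted p-value under 0.05 stood 11 of the 70, beside 16.7% of all genes. For bFGF against control edgeR called 0 of 70, beside 0.0126% of all genes, and DESeq2 called 1, Egr2, beside 0.575%. In that comparison 7 of the 70 had an unadjusted p-value under 0.05, beside 13.5% of all genes. The same count was 23 of the 70 for aFGF against control, beside 22.4% of all genes. For aFGF against bFGF over all pH it was 27 of the 70, beside 28%. Of the 14 FGF receptor and adaptor genes, the smallest p-value for hydrogels against control belonged to Fgfr2, the receptor with an isoform typical of epithelium, with a log2 fold change of -1.11 (adjusted p = 0.180), and the median of the list was 0.03, beside -0.02 over all genes. Of the 16 genes of the RAS to ERK cascade it belonged to Nf1, a RAS inhibitor (0.28, adjusted p = 0.173), with a median of 0.04. Of 20 other feedback inhibitors it belonged to Lrig1, a receptor inhibitor (-0.31, adjusted p = 0.169), with a median of 0.13, and of 20 other ERK target genes to Egr2, an early response transcription factor (-0.85, adjusted p = 0.163), with a median of 0.29.

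The other ERK target genes held most of the calls among the 4 lists. For aFGF against control 2 of 20 were called, beside 1.26% of all genes. Areg, which encodes the EGF receptor ligand amphiregulin, had 6.34 to 8.00 CPM in control and 9.24 to 38.4 CPM (median 20.5) with aFGF, and rose by a log2 fold change of 1.53 (adjusted p = 0.0447). Epha2, an ephrin receptor, rose by 0.95 on the log2 scale (adjusted p = 0.0490), with 11.3 to 22.4 CPM in control and 20.1 to 38.3 CPM with aFGF. The median of the list was 0.55, beside -0.03 over all genes. Of 10 keratinocyte genes 8 had a log2 fold change above 0 in this comparison (median 0.26). Among them Dsg3 was called (0.93, adjusted p = 0.0311 in edgeR). Of 10 fibroblast genes 8 were below 0 (median -0.15, 1 called), and the 9 liver genes tested were all above 0 (median 2.31, 0 called). The part of these marker genes in the Areg and Epha2 calls was not tested.

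For aFGF against bFGF over all pH, 5 of these 20 genes were called, beside 3.2% of all genes. Areg was higher with aFGF by 1.61 on the log2 scale (adjusted p = 0.00366), and the 9 aFGF libraries did not overlap with the 9 bFGF libraries (4.97 to 8.97 CPM). Ereg, which encodes the related ligand epiregulin, was higher by 2.32 (adjusted p = 0.0227), Phlda1 by 1.00 (adjusted p = 0.0471) and the transcription factor Egr3 by 0.77 (adjusted p = 0.0247). The ephrin receptor gene Epha4 was lower (-0.60, adjusted p = 0.0120). Of 20 other feedback inhibitors 1 was called, Errfi1, an inhibitor of the EGF receptor (1.40, adjusted p = 0.0281), while Cblb, a ubiquitin ligase with the smallest p-value of that list, had a log2 fold change of 0.57 (adjusted p = 0.0146) and was short of the fold threshold. Among the receptor and adaptor genes Gab1 (0.37, adjusted p = 0.0268) was also short of it. The medians of the 4 lists were -0.02 for receptors and adaptors, 0.05 for the cascade, 0.18 for other feedback inhibitors and 0.54 for other ERK targets, while that of the 10 genes described here was -0.08 and that of all genes 0.00. The macrophage, endothelial, fibroblast and liver genes differed in the same comparison as given above, with a median of 2.90 for the 9 liver genes tested. Of 10 keratinocyte genes 9 had a log2 fold change above 0 there (median 0.18, 0 called). The part of all these marker genes in the calls was not tested.

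These calls depended on single libraries to different degrees. For aFGF against bFGF, 6 of 70 genes were called, 7 without the 3 libraries with genes of other tissues, and 1 to 12 when any single library was left out (1 without 6.4-GelMA/bFGF replicate 1 and 12 without 7.4-GelMA/aFGF replicate 3). The calls over all genes moved as well, from 506 to between 269 and 714 without single libraries, with 714 also without 7.4-GelMA/aFGF replicate 3. DESeq2 called 10 of the 70, beside 777 over all genes. The alternatives that changed another setting gave 2 to 10 of the 70, beside 191 to 1702 over all genes. Nothing particular to the 70 genes is read from these ranges. Areg was called in all 21 fits that left out a library. For aFGF against control, 2 of 70 were called (1.26% of all genes), 1 without the 3 libraries (0.918%) and 5 by DESeq2 (3.83%). Alternatives that changed another setting gave 1 to 5, beside 101 to 579 over all genes. The count was 20 without control replicate 2 (11.9% of all genes called) and 0 to 3 without any other single library, with 0 in 15 of 21 fits. Without control replicate 2, 12 of 70 were called for hydrogels against control (7.4% of all genes) and 5 of 70 for bFGF against control (2.65% of all genes).

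The mouse genes of the factors themselves were transcribed in all groups. Fgf1 had 8.02, 4.55 and 10.7 CPM in control, 6.44 to 15.4 CPM with aFGF and 5.00 to 19.7 CPM with bFGF. Fgf2 had 4.43, 5.21 and 5.50 CPM in control, 3.32 to 11.3 CPM with aFGF and 2.72 to 5.69 CPM with bFGF. These ranges over control, all aFGF and all bFGF libraries overlapped for both genes, and neither was called. For Fgf2 the log2 fold change of aFGF against bFGF was 0.59 (adjusted p = 0.0643) and that of Fgf1 was -0.04. The highest skeletal muscle sum, 15900.5 CPM, was in 6.4-GelMA/aFGF replicate 3, where Fgf1 had 15.4 CPM. The lowest, 255 CPM, was in 7.4-GelMA/bFGF replicate 3, where Fgf1 had 6.00 CPM. The highest Fgf1, 19.7 CPM in 8.4-GelMA/bFGF replicate 2, went with a muscle sum of 2727 CPM. That library also held ovary genes at 897 CPM. The next highest Fgf1 values, 16.9 and 15.9 CPM in 7.4-GelMA/bFGF replicates 2 and 1, went with muscle sums of 13834 and 13203 CPM. The part of the muscle genes in the Fgf1 values was not tested.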

How the data were processed

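RNA of mouse wound tissue was prepared with a stranded mRNA kit and sequenced as 21 libraries. The deposited files hold, per library, unnormalized counts of reads on genes, and FPKM values. The FPKM deposited by the authors equal the count over a fixed length per gene and the library total, which was checked on 13699 genes (spread of the recovered length at most 6.01e-06%). The submitters' processing notes name the build GRCm39. The aligner, counting tool, annotation and strand setting are not given in the sources used here. Of 18806 symbols, 18662 (99.2%) were found in a RefSeq table, used for names only. The columns used were all tied to a sample.

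Total counts were 34362558 to 37817833 (median 36771838). Libraries of 1 group differed by more than counting noise. The labels call the 3 libraries of a group biological replicates.

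Counts were tested in R 4.3.3 with edgeR 4.0.16 (quasi-likelihood test after TMM, filterByExpr with the groups), with Benjamini-Hochberg adjustment over all genes tested. Calls needed an adjusted p below 0.05 together with more than 0.58 of log2 fold change. Comparisons of hydrogels or factors with control, and of the factors over all pH, used 1 fit over 21 libraries with a mean per group, and the remaining ones the libraries compared. CPM are TMM-scaled over 21 libraries, and log2 CPM, used for the correlations, have a prior count of 2. Intervals are 95%. Tests were tried on simulated data.

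The 10 genes, the pathway lists and the marker lists were chosen with earlier results of these data known. Named beside the 10 genes were, by rule, the 2 genes most like each, list genes that were called or had the smallest p-value of their list in hydrogels against control or in aFGF against bFGF, and Fgf1 and Fgf2. A gene of the cascade list that the rule names is not reported here. Alternatives were DESeq2 1.42.0, limma 3.58.1 on log2 of FPKM plus a pseudocount of 0.1 or 1, RLE normalization, other filters, no fold threshold, the replicate number as a block, and leaving out single libraries or the 3 libraries with genes of other tissues. The counts of pathway genes called under these alternatives were added once the data were known.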

Additional observations from a re-analysis of the deposited data

How the results depend on the processing

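Over the 14 comparisons, 317 counts of members called were recomputed under alternatives and 311 stayed at 0. DESeq2 called 1 of 10 genes for aFGF against control (Dusp4) and 1 for aFGF against bFGF at pH 8.4 (Il17rd), and without a fold threshold 1 was called for aFGF against control (Etv5). Leaving out single libraries gave 0 to 1 members called for hydrogels against control (Dusp6 without control replicate 2), 0 to 2 for aFGF against control (Dusp4 and Dusp6 without control replicate 2) and 0 to 1 for aFGF against bFGF at pH 8.4 (Spred1 without 8.4-GelMA/aFGF replicate 3). Of 1300 recomputed log2 fold changes of the 10 genes, 1272 kept their sign, and those that turned were of genes close to 0.

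Il17rd for bFGF against control, -0.00782 as reported, was 0.00970 in DESeq2, 0.00142 and 0.00531 in limma on FPKM with a pseudocount of 0.1 and 1 (0.00531 also without a filter), 0.00739 without a filter on counts, 0.00973 with RLE normalization, 0.00769 without the 3 libraries with genes of other tissues and -0.112 to 0.0770 without single libraries. Spred2 for aFGF against bFGF was -0.00802 in limma without a filter, and Spry1 for aFGF against control 0.0230 without the 3 libraries. Without single libraries, hydrogels against control ranged from -0.108 to 0.226 for Spry2, -0.0468 to 0.158 for Spred1 and -0.0486 to 0.252 for Spred2. For aFGF against control the range was -0.154 to 0.0437 for Spry1 and -0.0273 to 0.273 for Spred2, for bFGF against control -0.303 to 0.0307 for Spry2, -0.199 to 0.00597 for Spred1 and -0.0700 to 0.230 for Spred2, and for aFGF against bFGF -0.0262 to 0.0744 for Spred2. The cause of these turns was not tested.

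The number of genes called over the whole table moved more. It was 18 for any difference among the groups, 1 for hydrogels, 199 for aFGF and 2 for bFGF against control, and 506 for aFGF against bFGF. DESeq2 called 2030, 171, 579, 91 and 777 for the same comparisons, and 119, 264 and 949 for the factors at pH 6.4, 7.4 and 8.4, where edgeR called 0, 0 and 1. Leaving out single libraries gave 7 to 864, 0 to 1189, 0 to 1912, 0 to 426 and 269 to 714, with the highest of the first 4 without control replicate 2 and of the last without 7.4-GelMA/aFGF replicate 3, and 0 to 172 for the factors at pH 8.4 and 0 to 278 for pH 6.4 against 7.4 with bFGF. Other alternatives gave 3 to 22, 0 to 5, 104 to 240, 1 to 2 and 191 to 514, and without a fold threshold 375 genes were called for aFGF against control and 1702 for aFGF against bFGF. A fit over 21 libraries called 12 and 10 genes for the factors at pH 7.4 and 8.4, and 0 of the 10 genes.

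The replicate numbers did not pair the libraries: over 63 pairs with the same number, the correlation of deviations from the group means was -0.638 to 0.423 (median 0.00937), and 5 of 21 libraries correlated best with their own number. With the number as a block, 0 of the 10 genes were called in any comparison, and the genes called were 10, 2, 101, 1 and 403. With 3 libraries a group, the intervals in the report set the sizes of difference that could be told from 0.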
